A study of Mus musculus with 32 samples.

Results

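The suppressors of cytokine signalling (SOCS) and their relative Cish were followed in bone marrow-derived macrophages (BMDMs) with and without Nur77 during stimulation with lipopolysaccharide (LPS). The family was taken by gene symbol, with Socs1, Socs2, Socs3, Socs4, Socs5, Socs6, Socs7 and Cish giving 8 of the 25067 genes in the table. Of each gene, the RefSeq transcript with the highest mean count was used, and all 8 members passed the filter on low values. Socs1, Socs3 and Cish passed it, a group mean over 1 count per kilobase and 1000000 counts (RPKM), only through LPS-treated groups. Socs2 passed only through BMDM-Nur77-KO at 1 and 5 h of LPS (1.02 and 1.01 RPKM), while its highest mean in BMDM-WT was 0.991 RPKM. The macrophages were grown for 7 days in medium with L929-conditioned supernatant from femur and tibia marrow of male C57Bl6/J mice, 6 to 12 weeks old. BMDM-WT came from wild-type littermates. For BMDM-Nur77-KO, Cre recombinase under the CMV promoter had first removed the loxP-flanked Nr4a1 gene in the whole body of mice. Nur77-deficient animals without Cre expression were then produced, and these are the knockout mice of the authors. Nr4a1 encodes Nur77, and the sample labels nonetheless give the genotype of BMDM-Nur77-KO as "cre". Cells of both genotypes were left untreated (0 h) or received 100 ng/ml LPS for 1, 5 or 18 h, which gave 8 groups of 4 libraries. The number of animals behind the 4 replicates is not stated, so the p-values measure the spread between these samples, which may be technical.

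Each SOCS protein has an SH2 domain, which binds phosphorylated tyrosine, and a SOCS box, which recruits Elongin B, Elongin C and a cullin ubiquitin ligase. Cish, Socs1, Socs2 and Socs3 are classical feedback inhibitors of cytokine receptors: STAT factors switch the genes on, and the proteins then bind receptors or Janus kinases (JAKs) and end the signal. In macrophages Socs1 is best known for restraining interferon signalling and Socs3 for restraining gp130, the shared chain of the IL-6 receptor family encoded by Il6st. Socs4 and Socs5 act on growth factor receptors, and Socs6 and Socs7 have been linked to insulin receptor signalling.

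The promoters of the 3 members that LPS raised most carry motifs of these factors, and the stretches are shown here because the levels of Socs3, Cish and Socs1 carry most of the results. The sequences are from RefSeq on GRCm38.p6, the assembly behind mm10. The windows searched ran from 250 bases before to 50 after an annotated start of a gene. That start opened the RefSeq span of Socs1 and Cish, but lay inside the span of Socs3. In the sequences of Cish (chr9:107296657-107296682, plus strand) and Socs3 (chr11:117969447-117969566, minus strand) the capitals mark the gamma-activated site TTCNNNGAA bound by STAT dimers. In that of Socs1 (chr16:10785557-10785676, minus strand) they mark 2 overlapping matches to the core of an interferon-stimulated response element, AAANNGAAA.
Cish: ttTTCCTGGAAagTTCTTGGAAatct
Socs3: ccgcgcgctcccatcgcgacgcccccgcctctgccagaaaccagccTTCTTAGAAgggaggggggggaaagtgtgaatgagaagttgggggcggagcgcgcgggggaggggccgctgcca
Socs1: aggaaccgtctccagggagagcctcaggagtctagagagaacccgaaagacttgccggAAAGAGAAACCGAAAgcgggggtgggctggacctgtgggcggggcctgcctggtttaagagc

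The 2 matches of Cish lie 1 to 9 and 12 to 20 bases from the start, within an exon of a GENCODE transcript. That of Socs3 lies at -154 to -146 from the start used for its window (chr11:117969512-117969520). It is thus inside the RefSeq span of Socs3, in no GENCODE exon of the gene. The matches of Socs1 lie at -82 to -74 and -76 to -68. Of all 32851 windows of 300 bases, 8.3% hold TTCNNNGAA and 10.6% hold AAANNGAAA on either strand. The window of Socs4 held none of the 6 motifs searched. None of the 4 windows held the STAT6-type motif, the AP-1 motif TGANTCA, the Nur77 response element AAAGGTCA or the inner bases of a kappaB site GGANNTTCC, which were found in 6.95%, 7.81%, 1.51% and 4.26% of all windows. Windows for Socs2, Socs5, Socs6 and Socs7 were not used here. The positions of Socs1 (chr16:10783808-10785536), Socs2 (chr10:95383903-95417321), Socs3 (chr11:117966079-117970336) and Cish (chr9:107296659-107302784) are given by their RefSeq spans.

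The libraries held 8742362 to 15780926 counts. Nr4a1, the deleted gene, was at 15.5 to 25.7 TMM-scaled counts per 1000000 counts of a library (CPM) in untreated BMDM-WT and at 4.45 to 7.01 CPM in BMDM-Nur77-KO, and at 1 h of LPS at 359 to 485 CPM against 147 to 243 CPM. At these times it was lower in BMDM-Nur77-KO, without overlap, but not absent (log2 fold change -1.90 ± 0.19 SE untreated and -1.20 ± 0.15 at 1 h, adjusted p = 1.6e-08 and 1.9e-06 by edgeR's quasi-likelihood test). At 5 h its means were 0.926 CPM in BMDM-WT and 0.311 CPM in BMDM-Nur77-KO (-1.54 ± 0.55, adjusted p = 0.042 by the same test). At 18 h they were 0.318 and 0.225 CPM, with overlap (-0.47 ± 0.69, adjusted p = 0.68). Nr4a1 RNA was thus low in both genotypes when the members were compared at 5 and 18 h. Which part of the transcript the remaining reads cover cannot be read from counts per transcript. The 8 macrophage markers summed to 11000 to 18900 CPM in every library. B cell, T and NK cell, fibroblast, erythroid and mast cell lists stayed at or below 5.31 CPM, the neutrophil list at 15.6 to 45.6 CPM with Ly6g at 0 in 27 of 32 libraries, and the dendritic cell list at 1.22 to 26.7 CPM with Flt3 at 0 in 18 libraries. Some lists moved with genotype. At 18 h the dendritic cell list was at 13.5 to 21.6 CPM in BMDM-Nur77-KO against 5.16 to 7.1 CPM in BMDM-WT, and the macrophage list at 11000 to 12600 against 14000 to 14700 CPM. The macrophage list was also lower at 5 h (13200 to 16000 against 16500 to 17900 CPM) and the neutrophil list higher at 1 h (36.8 to 44.9 against 24.8 to 33.6 CPM). At very low levels, the T and NK cell list was lower at each time (0.0 to 0.444 against 0.638 to 1.21 CPM at 18 h). The B cell list was lower at 0 h (1.38 to 2.85 against 2.9 to 4.69 CPM). None of these ranges overlapped, and their part in the differences between genotypes was not tested. The dendritic cell list also rose with LPS within BMDM-WT, from 1.22 to 1.51 CPM at 0 h to 12.9 to 18.9 CPM at 5 h. It rested mainly on Xcr1 and Clec9a, with maxima of 21.0 and 16.3 CPM, while Flt3, Zbtb46 and Siglech stayed at or below 1.13 CPM. Lyz2 was the most abundant gene of the macrophage list, at 3690 to 11600 CPM. Over all 11204 genes tested, replicate 1 of BMDM-Nur77-KO after 5 h and replicate 4 at 18 h lay farthest from the other replicates of their groups, at a root mean square log2 distance of 0.729 and 0.518, against 0.207 to 0.449 for the other 30 libraries. The first was also the lowest of its group in Socs1, Socs3, Socs5, Socs7 and Cish, and the second in Socs1, Socs3, Socs7 and Cish. Values without them are given beside the genotype differences of Socs1, Socs3 and Cish, and of Socs7 at 5 h. In bulk RNA, fewer cells with a transcript and less of it per cell cannot be told apart.

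LPS turned the family from one dominated by Socs6 into one dominated by Socs3. Levels of different members are compared as RPKM, CPM per kilobase of transcript. In untreated BMDM-WT the 8 members summed to 30.8 ± 1.58 RPKM (SD, n = 4), of which Socs6 made up 61.2% ± 1.83. Socs6 stood at 18.9 ± 1.34 RPKM, followed by Socs5 at 4.38 ± 0.385 and Socs7 at 4.06 ± 0.159, which did not differ beyond their spread, and by Socs4 at 2.16 ± 0.27. The feedback inhibitors were all low in resting cells. Socs3 at 0.435 ± 0.151, Socs2 at 0.397 ± 0.0174 and Socs1 at 0.388 ± 0.15 RPKM did not differ beyond their spread, and Cish was lowest at 0.148 ± 0.0481. With the longest coding transcript of GENCODE as its length, Socs6 would stand at 9.13 RPKM and Socs1 at 0.231.

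At 1 h Socs3 alone made up 85.8% ± 1.18 of the sum in BMDM-WT, and 81.8% ± 1.28 in BMDM-Nur77-KO. The sum reached 477 ± 7.23 RPKM in BMDM-WT at 5 h, and 333 ± 99.9 in BMDM-Nur77-KO. The order at 5 h in BMDM-WT was Socs3 at 396 ± 5.52 RPKM, Socs1 at 38.8 ± 3.9, Socs7 at 20.7 ± 1.71, Socs6 at 13.0 ± 1.55, Cish at 4.08 ± 0.455, Socs4 at 2.23 ± 0.179, and Socs5 at 1.27 ± 0.0996 and Socs2 at 0.991 ± 0.272, the last pair within its spread. At this time Socs1 would stand at 23.1 RPKM with the longer length, next to Socs7. The same order held for the group means of BMDM-Nur77-KO after 5 h, where Socs1 at 22.5 ± 13.2 RPKM and Socs7 at 17.6 ± 1.94 lay within their spread.

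**Figure D1:**
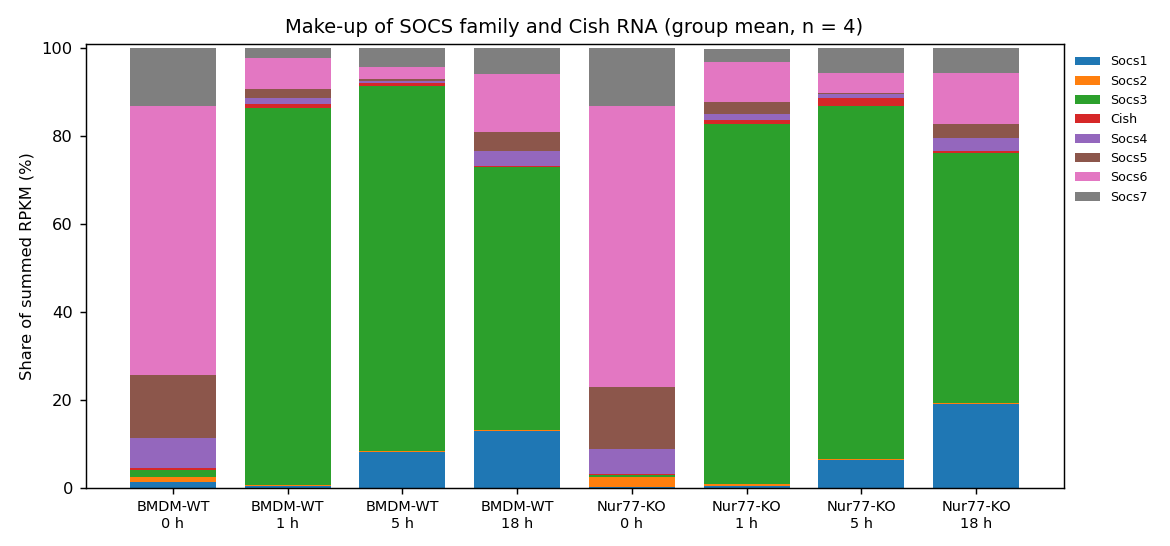
Stacked bars give the share (%) of each member in the summed RPKM of the 8 members, as the mean of 4 libraries in each of the 8 groups. Socs6 fills 61.2% of the bar of untreated BMDM-WT and Socs3 fills 83.0% of the bar at 5 h.

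By 18 h the sum had come down to 93.9 ± 5.55 RPKM in BMDM-WT and 118 ± 21.1 in BMDM-Nur77-KO. Socs3 was still the most abundant member, at 56.3 ± 6.27 RPKM in BMDM-WT. Socs6 at 12.3 ± 3.07 and Socs1 at 12.2 ± 2.34 followed in BMDM-WT and did not differ beyond their spread. In BMDM-Nur77-KO the order of these 2 group means was the other way, with Socs1 at 23.5 ± 10.9 and Socs6 at 13.1 ± 2.32 RPKM, again within the spread of Socs1.

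Socs3, the inhibitor of gp130 signalling, showed the largest response to LPS of the 8 members. In BMDM-WT it was at 1.3, 1.3, 0.53 and 1.31 CPM at 0 h, at 450, 453, 386 and 372 CPM at 1 h, and at 1010, 1020, 1010 and 989 CPM at 5 h. At 18 h it was at 144, 156, 121 and 154 CPM. All 4 times were separated without overlap, with a peak at 5 h that varied little between libraries. Against 0 h, the log2 fold change was 8.51 ± 0.25 at 1 h, 9.80 ± 0.26 at 5 h and 6.98 ± 0.25 at 18 h (adjusted p = 2.4e-22, 3.0e-24 and 4.5e-21), an 889-fold rise at 5 h. From 5 to 18 h it fell by 2.81 ± 0.18 on the log2 scale (adjusted p = 7.5e-15).

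In BMDM-Nur77-KO Socs3 started lower and peaked lower. It was at 0.182, 0.57, 0.384 and 0.319 CPM at 0 h, which is 2 to 9 counts a library against 7 to 25 in BMDM-WT. The 2 genotypes overlapped only through replicate 3 of BMDM-WT. The difference was called at 0 h (log2 fold change -1.54 ± 0.46, adjusted p = 0.025), and the ratio of summed counts was 0.338 with a 95% counting interval of 0.194 to 0.564. The call was lost on leaving out any 1 of BMDM-WT replicates 1, 2 and 4 or BMDM-Nur77-KO replicates 1 and 3 (adjusted p up to 0.088).

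At 5 h Socs3 was at 368, 733, 795 and 847 CPM in BMDM-Nur77-KO, and all 4 values lay below the lowest of BMDM-WT, 989 CPM. The log2 fold change was -0.56 ± 0.16 (adjusted p = 0.015), and without replicate 1 of BMDM-Nur77-KO, the library at 368 CPM, it was -0.35 (adjusted p = 0.041). The call was lost in an edgeR fit restricted to the libraries compared (-0.56, adjusted p = 0.18). At 1 h, 386, 323, 342 and 334 CPM overlapped with BMDM-WT (log2 fold change -0.26 ± 0.16, adjusted p = 0.46, and 0.023 in the restricted fit). At 18 h the 189, 172, 195 and 129 CPM of BMDM-Nur77-KO were above BMDM-WT in 3 of 4 libraries, and the difference was not called (0.25 ± 0.17, adjusted p = 0.31). It was 0.37 without replicate 4 of BMDM-Nur77-KO (adjusted p = 0.14) and was called when both outlying libraries were left out (0.37, adjusted p = 0.0039). The response relative to 0 h nonetheless differed between the genotypes at 18 h, by 1.79 ± 0.49 (adjusted p = 0.015), a value that includes the lower 0 h level of BMDM-Nur77-KO.

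**Figure D2:**
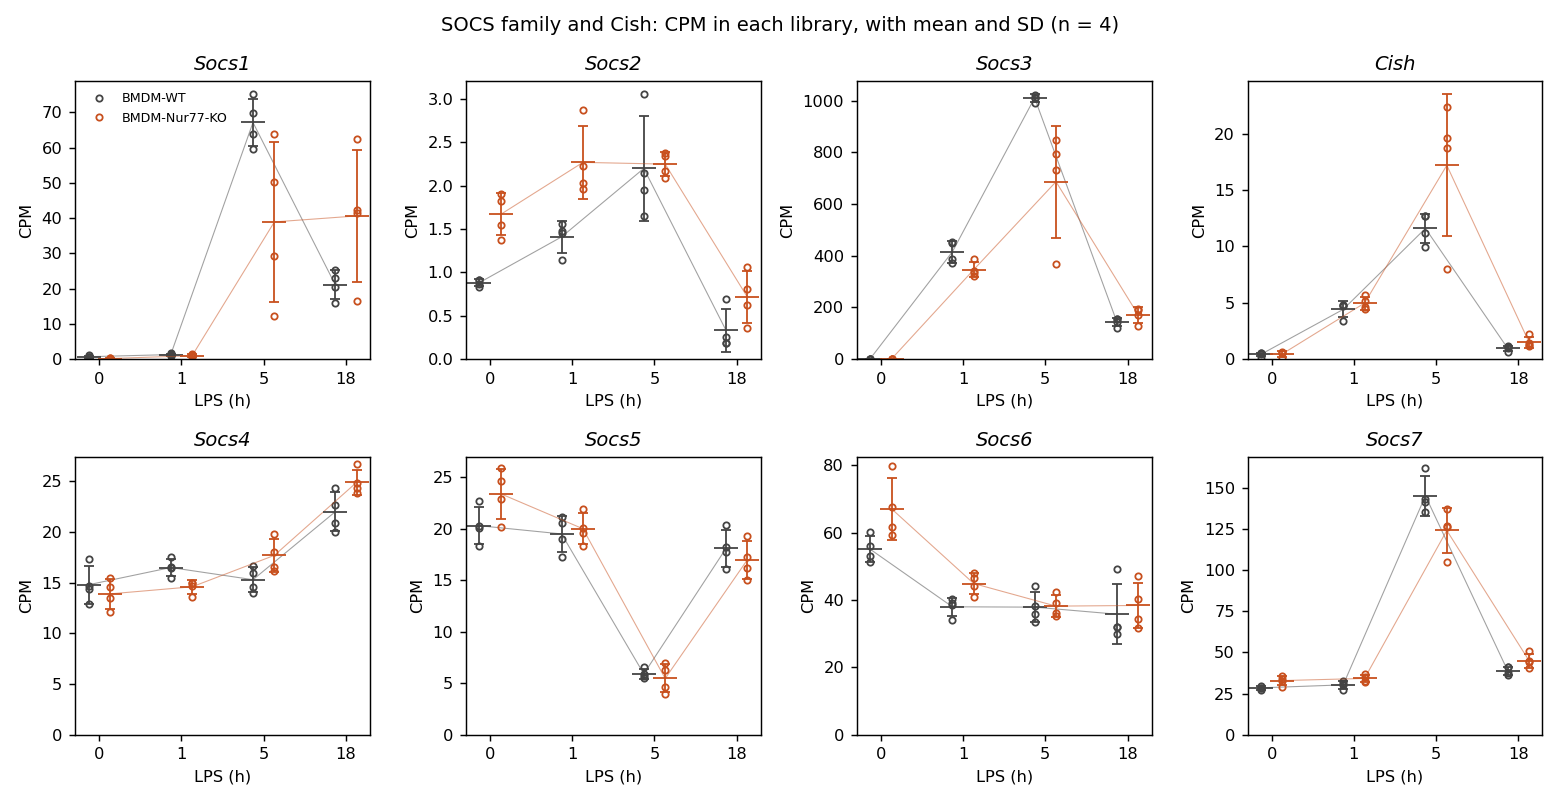
Each panel gives the CPM of 1 member (linear axis from 0) against the time of LPS, with a circle for each library and a bar for the mean ± SD of 4 libraries in BMDM-WT (grey) and BMDM-Nur77-KO (orange). Socs3 of BMDM-WT lies between 989 and 1020 CPM at 5 h, above all BMDM-Nur77-KO libraries. Socs5 falls at 5 h and rises again by 18 h.

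Socs1, which blocks the catalytic activity of JAKs, rose later than Socs3. In BMDM-WT it was at 0.458, 1.04, 0.53 and 0.654 CPM at 0 h, at 1.63, 0.915, 1.34 and 1.25 CPM at 1 h, and at 75.1, 69.8, 63.8 and 59.7 CPM at 5 h. At 18 h it was at 20.4, 25.2, 15.8 and 23.1 CPM. The values at 1 h overlapped with those at 0 h (log2 fold change 0.86 ± 0.67, adjusted p = 0.39), and both later times lay far above them (6.56 ± 0.46 and 4.89 ± 0.47, adjusted p = 7.2e-14 and 1.5e-10). From 5 to 18 h Socs1 fell by 1.67 ± 0.31 on the log2 scale in BMDM-WT (adjusted p = 2.5e-05).

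In BMDM-Nur77-KO Socs1 was hardly detected before LPS, with 3, 2, 0 and 3 counts against 6, 20, 7 and 9 in BMDM-WT. The groups did not overlap, and the ratio of the summed counts was 0.216 (95% counting interval 0.0875 to 0.465, which covers counting error only). The difference was not called by edgeR's quasi-likelihood test (adjusted p = 0.2). It was called in a fit to the untreated libraries alone (adjusted p = 0.019) and by DESeq2 (adjusted p = 0.013). Against these few counts, the ratio of Socs1 in BMDM-Nur77-KO at 1 h was 6.18 (counting interval 2.9 to 15.1), and this difference was not called (log2 fold change 2.55 ± 1.03, adjusted p = 0.13). It was called in the fit restricted to the libraries compared (adjusted p = 0.0036), by DESeq2 (adjusted p = 6.6e-04) and with summed transcripts (adjusted p = 0.033). Socs1 was 256-fold higher at 5 h (130 to 595) and 271-fold higher at 18 h (138 to 630), both called (adjusted p = 4.2e-13 and 2.9e-13).

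The replicates of BMDM-Nur77-KO spread widely in Socs1 once it was induced. At 5 h they were at 12.3, 29.1, 50.3 and 63.8 CPM, 3 of them below the range of BMDM-WT and 1 inside it (log2 fold change -0.79 ± 0.30, adjusted p = 0.056). The call depended on single libraries. The value was -0.50 without replicate 1 of BMDM-Nur77-KO (adjusted p = 0.2), and it was called without replicate 3 (-0.93, adjusted p = 0.031), without replicate 4 (-1.13, adjusted p = 0.0072) and without both outlying libraries (-0.50, adjusted p = 0.047). At 18 h they were at 41.5, 42.3, 62.3 and 16.4 CPM, 3 above the range of BMDM-WT and 1 inside it. Socs1 was called higher at 18 h (0.95 ± 0.31, adjusted p = 0.027). The value was 1.21 without replicate 4 of BMDM-Nur77-KO (adjusted p = 0.0019), and the call was lost without replicate 3 of BMDM-Nur77-KO (0.66, adjusted p = 0.16), without replicate 3 of BMDM-WT (0.83, adjusted p = 0.073) and without replicate 1 of BMDM-WT (0.93, adjusted p = 0.065). It was also lost in the fit restricted to the 18 h libraries (0.93, adjusted p = 0.078), and at this time the dendritic cell and macrophage lists differed between the genotypes as given above.

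From 5 to 18 h, where Socs1 fell in BMDM-WT, its level in BMDM-Nur77-KO had a log2 fold change of 0.07 ± 0.30 (adjusted p = 0.86), with a sign that turned when single libraries were left out (-0.22 to 0.41). The difference between these 2 changes was not tested directly. Relative to 0 h, the responses at 18 h differed by 3.07 ± 1.10 and were not called (adjusted p = 0.077). Without replicate 4 of BMDM-Nur77-KO the value was 3.34 (adjusted p = 0.026). It was also called by DESeq2 (3.09, adjusted p = 8.6e-04), with summed transcripts (3.02, adjusted p = 0.022) and without both outlying libraries (3.35, adjusted p = 0.0023). These values include the difference at 0 h (-2.12), which rests on 0 to 3 counts a library in BMDM-Nur77-KO.

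Cish, the founding member and a STAT5 target, rose and fell with Socs3 but was much less abundant. In BMDM-WT it was at 0.229, 0.416, 0.53 and 0.509 CPM at 0 h, at 4.83, 4.78, 3.35 and 4.69 CPM at 1 h, and at 12.7, 11.2, 12.7 and 9.99 CPM at 5 h. At 18 h it had come down to 0.638, 0.95, 1.04 and 1.2 CPM, still above every 0 h library. The log2 fold changes against 0 h were 3.35 ± 0.34, 4.75 ± 0.32 and 1.17 ± 0.45 (adjusted p = 3.9e-09, 2.8e-14 and 0.025). The call at 18 h was lost without replicate 1 at 0 h (0.99, adjusted p = 0.068) and without replicate 3 or 4 at 18 h (1.13 and 1.04, adjusted p = 0.053 and 0.074).

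At 5 h Cish went the other way from Socs3 between the genotypes. It was at 8.01, 18.7, 22.4 and 19.6 CPM in BMDM-Nur77-KO, so that 3 libraries lay above the range of BMDM-WT and replicate 1 below it. The log2 fold change was 0.57 ± 0.21 (adjusted p = 0.048). It was 0.80 without replicate 1 of BMDM-Nur77-KO (adjusted p = 7.8e-04), and the call was lost on leaving out any of the other 7 libraries (adjusted p 0.067 to 0.14). It was also lost with edgeR's filterByExpr filter, the replicate number as a block, summed transcripts and the restricted fit (adjusted p = 0.054, 0.075, 0.079 and 0.26), so under 11 of 15 alternatives in all. At 0, 1 and 18 h the Cish values of the genotypes overlapped, with adjusted p of 0.9, 0.81 and 0.25. The log2 fold change at 18 h was 0.63, and 0.73 without replicate 4 of BMDM-Nur77-KO (adjusted p = 0.24).

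Socs2, a brake on growth hormone signalling, was low throughout, at 2 to 36 counts a library. In BMDM-WT it was at 0.916, 0.832, 0.909 and 0.872 CPM at 0 h, at 2.15, 1.95, 1.65 and 3.06 CPM at 5 h, and at 0.182, 0.19, 0.693 and 0.258 CPM at 18 h. It thus rose at 5 h (log2 fold change 1.31 ± 0.25, adjusted p = 3.0e-05) and fell below its resting level at 18 h (-1.36 ± 0.34, adjusted p = 9.3e-04). In untreated BMDM-Nur77-KO it was at 1.55, 1.9, 1.38 and 1.83 CPM, above all of BMDM-WT (0.92 ± 0.25, adjusted p = 0.011). This call held on leaving out each library in turn and with filterByExpr in place of the RPKM filter.

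At 1 h of LPS the Socs2 values of BMDM-Nur77-KO, 2.23, 1.96, 2.88 and 2.03 CPM, again lay above those of BMDM-WT, 1.56, 1.48, 1.14 and 1.46 CPM, but the difference was not called (0.69 ± 0.22, adjusted p = 0.062, and 0.041 in the restricted fit). At 5 h the genotypes overlapped (0.03 ± 0.23, adjusted p = 0.93). At 18 h, 0.357, 1.06, 0.628 and 0.813 CPM overlapped with BMDM-WT only through its replicate 3 (1.07 ± 0.37, adjusted p = 0.051). Without that library the log2 fold change was 1.71 (adjusted p = 0.007), and over all left-out libraries it ran from 0.83 to 1.71 with adjusted p up to 0.19.

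The other 4 members, which are not classical STAT-induced feedback genes, were well expressed before LPS and moved in different directions. Socs7 was at 27.2 to 29.9 CPM at 0 h and 27.0 to 32.6 CPM at 1 h in BMDM-WT. It rose to 135 to 162 CPM at 5 h (log2 fold change 2.35 ± 0.09, adjusted p = 1.8e-20). At 18 h it had come down to 36.1 to 41.1 CPM, still above 0 h without overlap (0.45 ± 0.09, adjusted p = 4.4e-05). Socs5 moved the opposite way at 5 h. It was at 20.1, 18.3, 20.3 and 22.7 CPM at 0 h and at 6.56, 5.47, 5.74 and 5.88 CPM at 5 h (-1.78 ± 0.13, adjusted p = 2.2e-13), and at 18 h it was at 16.1 to 20.4 CPM, overlapping with 0 h. Over the 8 group means, Socs5 and Socs7 had a Pearson r of -0.98, given as a description since all groups share their libraries between genes.

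Socs6 fell at 1 h, from 51.3 to 60.2 CPM to 34.1 to 40.2 CPM in BMDM-WT (-0.54 ± 0.13, adjusted p = 0.0024), and was lower at 5 and 18 h as well (-0.54 ± 0.13 and -0.62 ± 0.13). It was the only member that fell within the first hour, in both genotypes. Socs4 was at 12.9 to 17.3 CPM at 0 h and 14.0 to 16.7 CPM at 5 h, which overlap (0.05 ± 0.10, adjusted p = 0.68), and rose to 20.0 to 24.3 CPM at 18 h (0.57 ± 0.09, adjusted p = 2.9e-06).

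Between the genotypes these 4 members differed little. Socs7 peaked at 135, 141, 162 and 143 CPM in BMDM-WT and at 105, 126, 127 and 137 CPM in BMDM-Nur77-KO, ranges that touch at 135 to 137 CPM (-0.23 ± 0.08, adjusted p = 0.043). Its response at 5 h was smaller in BMDM-Nur77-KO by 0.44 ± 0.12 on the log2 scale (adjusted p = 0.04). This value includes a difference at 0 h, with BMDM-Nur77-KO at 32.9 against 28.5 CPM (0.21 ± 0.09, adjusted p = 0.13). The restricted fit called that difference (0.23, adjusted p = 0.04). With replicate 1 of BMDM-Nur77-KO after 5 h left out, neither the level nor the response at 5 h was called (-0.16, adjusted p = 0.2, and -0.37, adjusted p = 0.067). In all, the call at 5 h was lost under 9 of 15 alternatives, among them the restricted fit (adjusted p = 0.23) and the replicate block (0.056). The call of the response was lost under 13 of 23, the restricted fit (adjusted p = 0.11) and the replicate block (0.058) included. For Socs4, Socs5 and Socs6 edgeR's fit to all groups called no difference between genotypes at any time, with log2 fold changes from -0.18 to 0.28. The fits restricted to the libraries compared called Socs6 higher in BMDM-Nur77-KO at 0 h (0.30, adjusted p = 0.042) and at 1 h (0.24, adjusted p = 0.032).

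**Figure D3:**
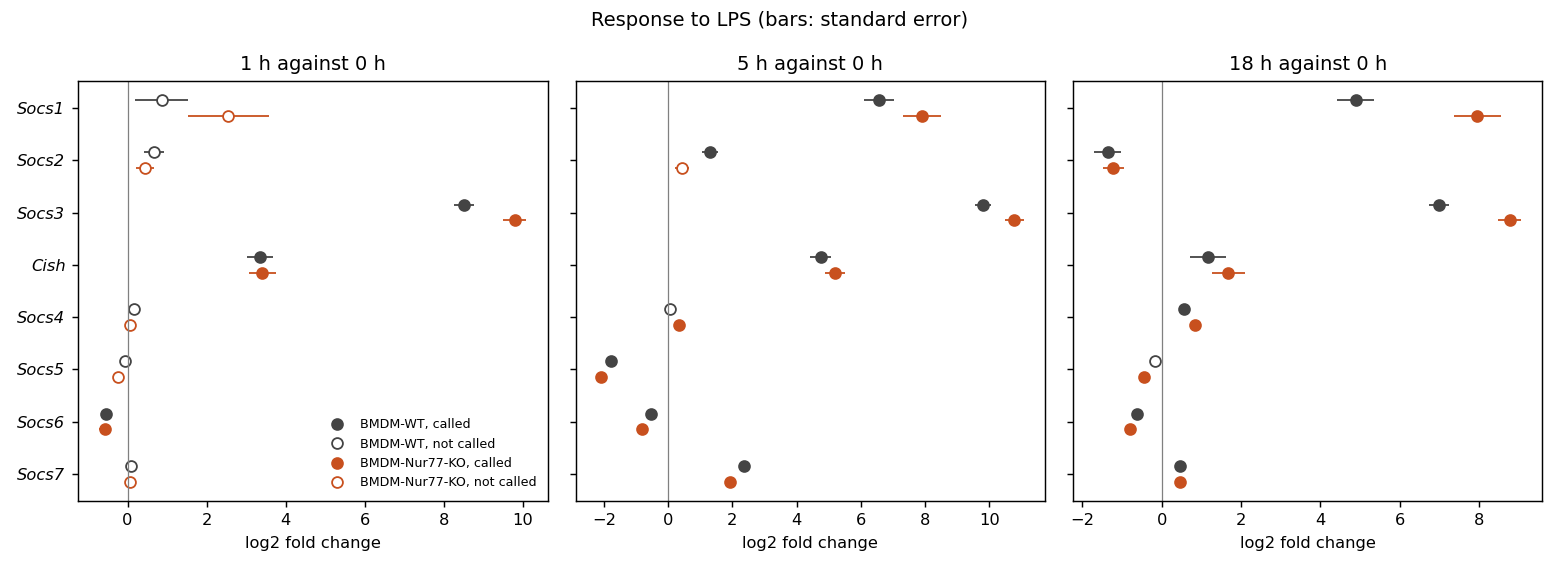
Points give the log2 fold change of each member at 1, 5 and 18 h of LPS against 0 h in BMDM-WT (grey) and BMDM-Nur77-KO (orange), with bars for the standard error and filled points for an adjusted p under 0.05. Socs3 reaches 9.80 in BMDM-WT at 5 h, and Socs5 and Socs6 lie below 0; Socs1 of BMDM-Nur77-KO rests on 0 to 3 counts at 0 h.

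Counted over the family, LPS changed most members at 5 and 18 h, as it did most genes. At 1 h in BMDM-WT, Socs3 and Cish were called higher and Socs6 lower, against 10.1% of all genes tested called higher and 10.2% lower. At 5 h 5 members were higher and 2 lower, where 30.1% of all genes were higher and 40% lower. At 18 h the counts were again 5 and 2, where 32.4% of genes were higher and 33.9% lower. The median log2 fold change of the members at 5 h was 1.83, and that of all genes -0.14. Socs1, Socs3 and Cish passed the filter on low values only through LPS-treated groups. Their part in this median, and in the counts of either genotype, is thus no independent evidence of a rise. From 5 to 18 h 2 members (Socs4 and Socs5) rose and 5 fell in BMDM-WT, where 36% of genes rose and 33.3% fell.

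In BMDM-Nur77-KO the same members were called at 1 h, Socs3 and Cish higher and Socs6 lower, against 6.91% and 5.41% of genes. At 5 h 5 members were higher and 2 lower, where 32.2% and 39.2% of genes were. Among them Socs4 was called in BMDM-Nur77-KO (0.34 ± 0.09, adjusted p = 0.0018) and Socs2 was not (0.42 ± 0.22, adjusted p = 0.093). At 18 h all 8 members were called, 5 higher and 3 lower, where 33.8% and 35.6% of genes were. From 5 to 18 h 2 members rose and 4 fell, where 35.1% and 34.1% of genes did. The LPS comparisons of a genotype share its untreated libraries.

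Between the genotypes few members were called. At 0 h 1 member was higher (Socs2) and 1 lower (Socs3) in BMDM-Nur77-KO, against 6.31% of all genes higher and 6.34% lower. At 1 h no member was called by edgeR's quasi-likelihood test in the fit to all groups or by DESeq2, against 3.47% and 3.05% of genes, and 1 member (Socs2) had an unadjusted p under 0.05. The fit restricted to the 1 h libraries called 3 members, Socs2 and Socs6 higher and Socs3 lower. At 5 h Cish was higher and Socs3 and Socs7 were lower, against 13.7% and 10.7% of genes. At 18 h Socs1 was higher and no member lower, against 11.7% and 9.93% of genes. The median log2 fold change of the members was 0.16 at 0 h and 0.23 at 18 h, and that of all genes -0.03 and -0.01. With so few members, these shares are a description.

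The response relative to 0 h differed between the genotypes for 2 members. None was called at 1 h by edgeR's quasi-likelihood test or by DESeq2 (0.0446% of all genes had a stronger and 0.0268% a weaker response in BMDM-Nur77-KO), where 1 member, Socs3, had an unadjusted p under 0.05. At 5 h Socs7 had a lower value and no member a higher one, against 1.37% and 1.74% of genes. At 18 h Socs3 had a higher value and no member a lower one, against 5.36% and 4.06% of genes. These tests share the 0 h libraries with those between untreated genotypes. The values of Socs7 and Socs3 thus include their differences at 0 h, 0.21 and -1.54. The level of Socs3 at 18 h was itself not called (0.25).

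**Figure D4:**
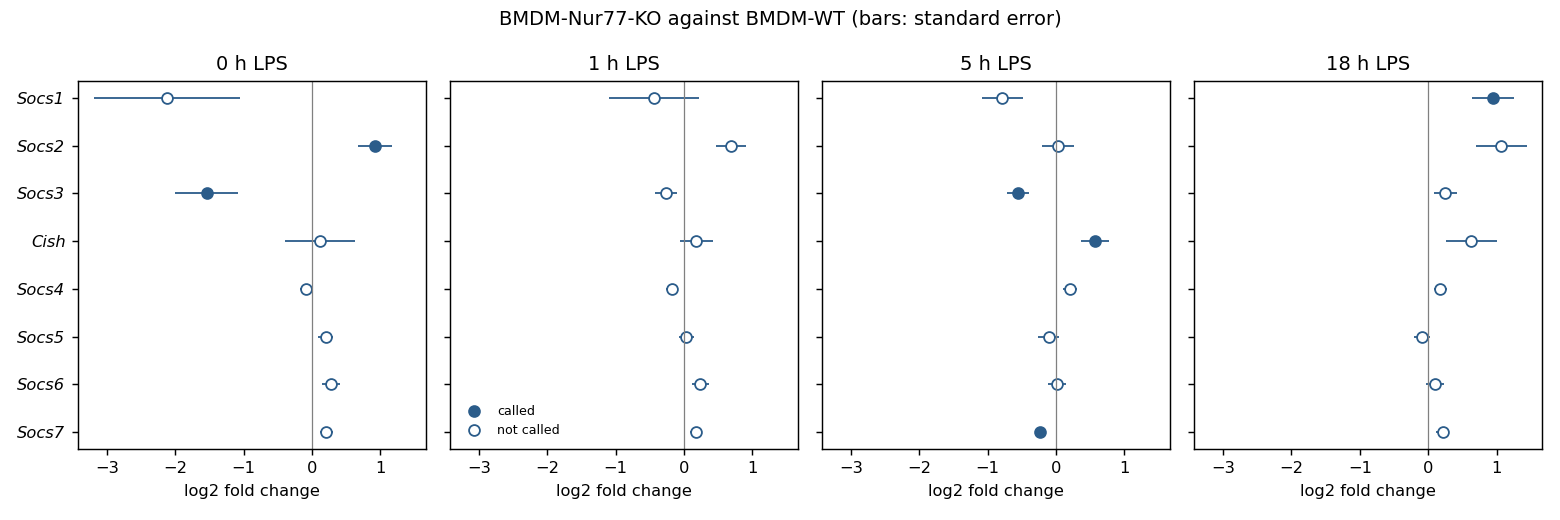
Points give the log2 fold change of each member in BMDM-Nur77-KO against BMDM-WT at 0, 1, 5 and 18 h of LPS, with bars for the standard error and filled points for an adjusted p under 0.05. The filled points are Socs2 and Socs3 at 0 h, Socs3, Cish and Socs7 at 5 h, and Socs1 at 18 h; Socs1 at 0 h rests on 0 to 3 counts in BMDM-Nur77-KO.

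The balance between members within a library was also described, since a ratio of members within 1 library does not depend on its scaling. The ratios were chosen after the values were seen and were not tested. At 5 h the CPM of Socs3 was 79.9, 91.3, 80.0 and 99.0 times that of Cish in BMDM-WT, and 46.0, 39.2, 35.5 and 43.2 times in BMDM-Nur77-KO. The groups did not overlap, and replicate 1 of BMDM-Nur77-KO, which was low in both genes, lay close to the other 3. The ratio of Socs1 to Cish at 5 h was 5.03 to 6.24 in BMDM-WT and 1.54 to 3.25 in BMDM-Nur77-KO, again without overlap, while that of Socs3 to Socs1 overlapped (13.5 to 16.6 and 13.3 to 29.9). The ratio of Socs1 to Cish did not overlap before LPS either, at 1.0 to 2.5 in BMDM-WT and 0.0 to 0.429 in BMDM-Nur77-KO, where it rests on 0 to 3 counts of Socs1 a library. The other ratios overlapped at 0 h, and at 1 and 18 h all 3 did.

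In the outlying replicate 1 at 5 h, Socs1 was at 25.9%, Cish at 39.6%, Socs3 at 46.5%, Socs5 at 67.2% and Socs7 at 80.5% of the mean of the other 3 replicates, whereas Socs2, Socs4 and Socs6 were at 108%, 117% and 115%. Il6 was at 160%, Il10 at 113% and Ifnb1 at 75.8% in the same library. In replicate 4 at 18 h Socs1 was at 33.7%, Socs3 at 69.5%, Cish at 70.2% and Socs7 at 87.3% of the others. Socs2, Socs4, Socs5 and Socs6 were at 119%, 110%, 103% and 132%, and Il6, Il10 and Ifnb1 at 134%, 124% and 113%. What set these libraries apart was not tested.

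**Figure D5:**
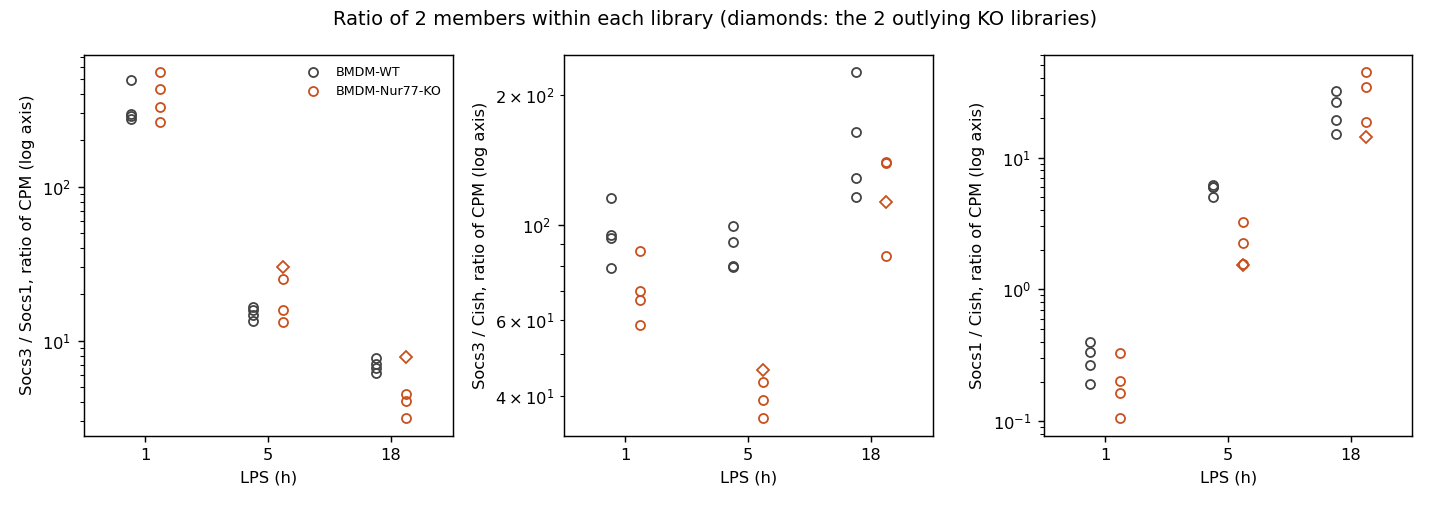
Ratios of the CPM of 2 members in each library (log axis) against the time of LPS, for BMDM-WT (grey) and BMDM-Nur77-KO (orange); diamonds mark replicate 1 at 5 h and replicate 4 at 18 h of BMDM-Nur77-KO. At 5 h the ratio of Socs3 to Cish lies between 79.9 and 99.0 in BMDM-WT and between 35.5 and 46.0 in BMDM-Nur77-KO.

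For the 4 members with the widest span of group means, the genes with the most similar pattern were listed by Pearson r over the 8 group means of log2 CPM. Socs3, with a span of 10.95, was most like Il1b (r = 0.992), Skil (0.990) and Irf1 (0.990). Socs1, with a span of 7.78, was most like Atrip-trex1, a read-through transcript that shares reads with its component genes (0.995), Pik3r5 (0.995) and Serpina3g (0.994). Cish was most like Tnfsf4 (0.995) and Il17ra (0.989), and Socs2 like Flt1 (0.980), Plaur (0.977) and Ngp (0.976), a gene of the neutrophil list. Among the members themselves, Socs3 and Cish had r = 0.85, Socs3 and Socs1 r = 0.70, and Socs3 and Socs6 r = -0.91. Both genotypes and all times enter these values, so they mostly describe the shape of the LPS response.

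The pathway that these members restrain was followed through 78 genes listed by role, of which 72 were tested. Single pathway genes were not followed under the alternatives used for the members. Between the genotypes at 5 h, the restricted fit called 403 of all genes, against 2730 in the fit to all groups. The cytokines rose with LPS, with all 14 tested called higher at 5 h in BMDM-WT, against 30.1% of all genes. Between the genotypes, BMDM-Nur77-KO had higher levels of 3 of 14 cytokines and lower levels of 2 after 5 h, and higher levels of 9 at 18 h, with a median log2 fold change of 0.95. Of all genes tested, 13.7% were higher and 10.7% lower at 5 h, and 11.7% higher and 9.93% lower at 18 h, when the dendritic cell list was also higher and the macrophage list lower in BMDM-Nur77-KO. Il6, whose receptor signals through gp130, was listed at 0 before LPS. After 5 h it reached 233 CPM in BMDM-WT and 356 CPM in BMDM-Nur77-KO (0.61 ± 0.18, adjusted p = 0.019). In the latter, the outlying replicate 1 was at 495 CPM, and the mean of the other 3 was 310 CPM. At 18 h Il6 stood at 4.1 against 52.0 CPM (3.66 ± 0.24, adjusted p = 2.2e-11).

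Il10, an anti-inflammatory cytokine that signals through STAT3, was lower in BMDM-Nur77-KO after 1 h (-0.77 ± 0.11, adjusted p = 2.3e-05) and at 5 h (-1.33 ± 0.13, adjusted p = 1.2e-08), when Socs3 was also below BMDM-WT. At 18 h it was higher (0.45 ± 0.15, adjusted p = 0.033). Osm, another gp130 cytokine, was lower at 1 h (-0.73 ± 0.23, adjusted p = 0.049) and was not called at 5 h (-0.76 ± 0.29, adjusted p = 0.052), where replicate 1 of BMDM-Nur77-KO was at 0.866 CPM and the others at 4.84 to 8.79. Lif was at 16.3 CPM in BMDM-WT and 11.9 CPM in BMDM-Nur77-KO after 1 h (-0.46 ± 0.17, adjusted p = 0.13). Ifnb1, which encodes interferon beta, was higher at 18 h (1.33 ± 0.18, adjusted p = 4.3e-06), as Socs1 was, and at 5 h it was at 4.01 and 4.56 CPM. Links between these cytokines and the members were not tested. Il23a (2.01 ± 0.32) and Il12a (1.39 ± 0.21), subunits of IL-23 and IL-12, had the largest differences among the called cytokines at 5 h, and Il12a led those called at 18 h (4.10 ± 0.34).

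Of 21 receptor chains, BMDM-Nur77-KO had 2 at higher and 6 at lower levels after 5 h (13.7% and 10.7% of all genes), and 4 each way at 18 h (11.7% and 9.93%). Il12rb1 (-1.20 ± 0.24) and Il4ra (-0.83 ± 0.13) led at 5 h, and Il13ra1 (0.90 ± 0.15) and Il15ra (0.89 ± 0.10) at 18 h. Il6st, the chain that Socs3 binds, fell by 2.01 ± 0.10 on the log2 scale at 5 h in BMDM-WT, and was lower in BMDM-Nur77-KO after 18 h (-0.30 ± 0.09, adjusted p = 0.015). Of the 4 kinases, Jak2 rose by 5.03 ± 0.15 at 5 h in BMDM-WT and was higher in BMDM-Nur77-KO after 18 h (0.85 ± 0.13, adjusted p = 8.9e-06), and Tyk2 was lower at 5 h (-0.56 ± 0.16, adjusted p = 0.012).

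Of the 7 STAT factors, 2 were lower at 5 h (10.7% of all genes) and 3 were higher at 18 h (11.7%). Stat3 was lower at 5 h (-0.28 ± 0.08, adjusted p = 0.017) and higher at 18 h (0.68 ± 0.08, adjusted p = 2.7e-07). Stat5a was higher at 18 h (0.65 ± 0.12) and Stat4 lower at 5 h (-0.76 ± 0.16). Of 10 STAT targets, 6 were lower in BMDM-Nur77-KO before LPS, when Socs3 was also lower and 6.34% of all genes were, among them Gbp2 (-1.48 ± 0.27) and Irf1 (-0.81 ± 0.09). At 5 h 2 were lower (10.7% of all genes), and at 18 h 3 were higher (11.7%), with Gbp2 at 0.91 ± 0.25 and Irf1 at 0.72 ± 0.09.

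The pathway holds other inhibitors besides the SOCS genes, of which BMDM-Nur77-KO had 3 of 11 at higher and 1 at lower levels at both 5 h (13.7% and 10.7% of all genes) and 18 h (11.7% and 9.93%). Usp18, an inhibitor of the interferon receptor, was lower at 5 h and higher at 18 h (-0.49 ± 0.12, adjusted p = 0.0046, and 0.55 ± 0.12, adjusted p = 8.4e-04), and Ptpn2, a JAK and STAT phosphatase, was higher at both (0.81 ± 0.19 and 0.77 ± 0.19). Of the 6 genes listed as partners of the SOCS box, only the cullin gene Cul2 was called between the genotypes. It was higher at 18 h (0.65 ± 0.16, adjusted p = 0.003), when 11.7% of all genes were. The other listed cullin gene, Cul5, was not called. Over the 72 pathway genes, 8 were higher and 13 lower at 5 h, and 25 higher and 5 lower at 18 h, with medians of -0.03 and 0.22 beside 0.02 and -0.01 for all genes, of which 13.7% were higher and 10.7% lower at 5 h, and 11.7% higher and 9.93% lower at 18 h. The list was written with earlier results of these data known, so its direction is no independent evidence.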

How the data were processed

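The authors deposited 1 table of expected counts, not normalized, for 42361 RefSeq transcripts in 32 libraries of strand-specific, paired-end RNA-seq. They aligned reads to mm10 with HISAT2 2.1.0, kept alignments with a mapping quality over 15 with SAMtools 1.16.1 and counted with HOMER. The labels also name CASAVA 1.8.2. Each mate adds 0.5 to a count, so 28.6% of values are not whole. Whether counting used the strand is not given in the sources used here, and reads of a gene and an antisense partner cannot then be told apart. RefSeq and GENCODE named 42198 and 70 transcripts. The 93 unnamed ones (0.233% to 1.37% of counts) were left out.

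Isoforms share reads, so each gene was represented by its transcript of highest mean count, rounded to whole numbers. Socs2 has 4 transcripts, Socs1 and Cish 2 and the other members 1. Lengths came from GENCODE, limited to the RefSeq gene span (860 genes). Testing covered the 11204 genes whose mean RPKM exceeded 1 in any group. TMM-scaled counts were fitted with edgeR 4.0.16 (R 4.3.3) in one model of 8 groups, with the quasi-likelihood test and Benjamini-Hochberg adjustment over all genes tested. Called means an adjusted p under 0.05. Standard errors are the log2 fold change divided by the square root of F. The procedure was tested on simulated data.

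The members and gene lists were chosen with earlier results of these data known. The text names all members, Nr4a1, the 3 genes most like each of the 4 members that span most, and, per pathway role, genes with the largest called changes plus Il6, Il10, Ifnb1, Osm, Lif, Il6st, Stat3 and Usp18. Not all of these are printed, and the results of 2 further genes under this rule are not reported here. Alternatives were DESeq2 1.42.0, its size factors in edgeR, filterByExpr, sums over transcripts, a fit restricted to the groups compared, the replicate number as a block, fold limits, leaving out each library and, chosen after seeing the data, leaving out 2 outlying libraries together. Counting intervals are exact conditional binomial intervals at 95% and cover counting error only. Labels give no batch. Protein sequences were not analysed here.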

Additional observations from a re-analysis of the deposited data

Results flagged for a closer look

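In 5 of the 64 groups of 4 libraries (8 members in 8 groups), 1 library lay far from the other 3, where chance flags about 1 in 20. Socs2 and Socs6 in BMDM-WT at 18 h were each highest in replicate 3, at 0.693 and 49.2 CPM, against 0.182 to 0.258 and 30.0 to 32.1 CPM in the others. Socs3 in untreated BMDM-WT was lowest in replicate 3, at 0.53 CPM beside 1.3 to 1.31. Cish was lowest in replicate 3 of BMDM-WT at 1 h, at 3.35 CPM beside 4.69 to 4.83, and in replicate 3 of untreated BMDM-Nur77-KO, at 0.0767 CPM, which is 1 count beside 7 to 9. Replicates of the same number are not known to share an animal or a day, and why these libraries stood apart was not tested.

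The response to LPS differed between the genotypes for Socs7 at 5 h, by -0.44 on the log2 scale, and for Socs3 at 18 h, by 1.79. The value of Socs7 lost its call on leaving out any 1 of 11 of the 16 libraries. That of Socs3 kept it on leaving out each of the 16, and rests on 2 to 9 counts a library in untreated BMDM-Nur77-KO.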

How the results depend on the processing

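Of 120 member values (8 members in 15 comparisons), 56 were called. Fold limits were applied only to the counts of members called, not to these values. Under the other alternatives, 49 called values always kept direction and call, and 7 lost the call under at least 1. Of the values not called, 17 gained a call under at least 1. No value changed sign that was called either way. Fits restricted to the groups compared called 5 members between untreated genotypes, 3 at 1 h, 0 at 5 h and 0 at 18 h, 5 for LPS at 1 h in BMDM-WT and 0 for the genotype difference in the response at 5 h. Over all genes these fits called 2413, 1723, 403 and 1609 between the genotypes (1417, 731, 2730 and 2425 in the fit to all groups), 3782 for LPS at 1 h in BMDM-WT (2274), and 219 and 167 for the responses at 1 and 5 h (8 and 349); DESeq2 called 36 and 526 for these responses. The cause was not tested. At 18 h, DESeq2's size factors, DESeq2 and summed transcripts each called 2 members between genotypes, and DESeq2 and summed transcripts each 2 for the response. Fold limits left 0 members between genotypes at 5 h, 0 for the response at 5 h, and 4 for LPS at 18 h in each genotype. Without the 2 outlying libraries together, 3 members were called between genotypes at 18 h and 2 each for the responses at 5 and 18 h (585 and 2023 genes, against 349 and 1055).

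Replicate numbers did not pair the samples: deviations of same-numbered libraries had r of -0.704 to 0.466, and 2 of 32 libraries were nearest their own number. With the replicate number as a block, 1 member was called between genotypes at 5 h and 0 for the response at 5 h, and no other count moved by over 1.5 times.

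Leaving out each library in turn gave 1 to 2 members between genotypes at 0 h, 1 to 3 at 5 h and 0 to 2 at 18 h, and 0 to 1 and 1 to 2 for the responses at 5 and 18 h. Values near 0 turned sign. Between genotypes their ranges were -0.06 to 0.46 for Cish at 0 h, -0.02 to 0.07 for Socs5 at 1 h, and, at 5 h, -0.09 to 0.23 for Socs2, -0.25 to 0.00 for Socs5 and -0.04 to 0.09 for Socs6, and -0.01 to 0.29 for Socs6 at 18 h. Against 0 h they were -0.11 to 0.00 for Socs5 at 1 h and -0.01 to 0.13 for Socs4 at 5 h in BMDM-WT, and -0.00 to 0.10 for Socs7 at 1 h in BMDM-Nur77-KO. For the change from 5 to 18 h in BMDM-Nur77-KO, ranges were -0.22 to 0.41 for Socs1 and -0.10 to 0.09 for Socs6. For the responses they were -0.10 to 0.05 for Socs6, -0.10 to 0.00 for Socs7 and -0.29 to 0.24 for Cish at 1 h, and -0.09 to 0.78 for Socs2, -0.29 to 0.01 for Socs6 and -0.06 to 0.05 for Socs7 at 18 h. Elsewhere, Socs6 from 5 to 18 h in BMDM-Nur77-KO turned to -0.04 with DESeq2's size factors and with DESeq2 and to -0.05 without the 2 outlying libraries, which also gave -0.04 and -0.01 for Socs6 between genotypes at 5 and 18 h, 0.00 for Socs5 at 5 h and 0.05 for the response of Socs7 at 18 h. Summed transcripts gave -0.05 for the response of Cish at 1 h, and the restricted fit 0.00 for that of Socs7 at 18 h. Low counts at 0 h limit Socs1, Socs3 and Cish most.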
